A study of Mus musculus with 30 samples.

Results

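The genes described here belong to the BCL2 family, the proteins that decide at the outer mitochondrial membrane whether a cell enters apoptosis. They are 10 of the 54532 genes in the count table, chosen by gene name: Bcl2, Bcl2l1, Mcl1, Bcl2a1b, Bcl2a1d, Bmf, Bcl2l11, Bbc3, Bid and Bax. The family has 3 functional classes. Pro-survival proteins (BCL2, BCL-XL from Bcl2l1, MCL1 and the A1 proteins from the Bcl2a1 genes) hold their relatives in check, and the effector BAX forms pores that release cytochrome c once it is activated. The BH3-only proteins (BMF, BIM from Bcl2l11, PUMA from Bbc3, and BID) bind the pro-survival proteins or the effectors directly and start the process. Microglia, the resident macrophages of the brain, depend on signals through the receptor CSF1R to stay alive. In macrophages and their relatives, inflammatory signals through NF-kB are known to raise A1, while growth-factor withdrawal and FOXO factors are known to raise BIM.

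Bulk RNA sequencing covered microglia from brains of C57BL/6 mice (C57/B6 in the sample labels) in 5 isolation protocols, each treated with HMGB1 for 4 h or left untreated (Control). HMGB1 is a nuclear protein that injured cells release and that immune cells sense as a danger signal. Each of the 10 groups had 3 libraries, 30 in all. In Protocols 1A, 1B and 1C, brains of 5 neonates aged 0 to 3 days were pooled and microglia were shaken from mixed glial cultures. Protocol 1A used 10 days of culture with GM-CSF at 0.5 ng/ml, Protocol 1B used 10 days without GM-CSF, and Protocol 1C used 21 days with GM-CSF at 0.5 ng/ml. In Protocol 2, brains of 3 mice aged 6 to 8 weeks were pooled, and adherent cells grew for 7 days with M-CSF and GM-CSF, 100 ng/ml of either. Protocol 3 took cells from mice of 6 to 8 weeks with anti-CD11b beads and used 0 days of culture before the treatment. Per the study, cells of Protocols 1 and 2 were replated in serum-free X-VIVO medium, which lacks added growth factors, and used the next day. Protocol 3 cells went into this medium at once. The HMGB1 concentration, 1 µg/ml, is stated for Protocol 3 only. Age, isolation, culture time and growth factors differ together between Protocols 1, 2 and 3 and cannot be told apart.

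Library totals ranged from 14151983 to 28564757 counts. Levels are given as CPM, counts relative to the size of each library, which was scaled by the trimmed mean of M values (TMM), and levels of different genes are compared only as CPM per kb of gene length. The 10 microglial markers on the list had counts in every group, except Siglech at 0 in Protocol 1B HMGB1. Their summed level was 4625 to 5447 CPM in Protocol 3 HMGB1 and 5019.7 to 5184 CPM in Protocol 3 Control, against 1979.9 to 3686 CPM in the cultured groups. Neutrophil markers summed to 557 to 1016 CPM in Protocol 3 with 12 of 12 detected, and to 54.1 to 221 CPM elsewhere, where Retnlg was at 0 in every group. Within the neonate-derived protocols they were higher with HMGB1, at 178 to 195 CPM in Protocol 1A HMGB1 against 99.9 to 132 CPM in its Control, 105 to 122 CPM in Protocol 1B HMGB1 against 54.1 to 67.0 CPM in its Control, and 154 to 174 CPM in Protocol 1C HMGB1 against 91.8 to 108 CPM in its Control, with Retnlg and Elane at 0 in all 6 groups. Endothelial markers moved alike, at 69.2 to 109.7 CPM in Protocol 1A HMGB1 against 28.8 to 49.6 CPM in its Control, 41.8 to 72.7 CPM in Protocol 1B HMGB1 against 15.6 to 20.02 CPM in its Control, and 205 to 306 CPM in Protocol 1C HMGB1 against 44.7 to 59.3 CPM in its Control, where Cldn5, Tie1 and Emcn were at 0 in both groups of Protocol 1C. Single genes carried these sums. Mean Lcn2 was 50.4 CPM in Protocol 1A HMGB1 and 0.205 CPM in its Control. S100a8 and Csf3r were also higher with HMGB1, S100a9 and Ngp stayed at 0.0744 CPM or less, and Mmp8 was lower in 1A. Flt1 and Kdr held most of the endothelial sums. Flt1 averaged 210 CPM in 1C HMGB1 and 42.8 CPM in its Control, while Pecam1 stayed at 0.959 CPM or less in all 6 groups. Fibroblast markers reached 349 CPM in Protocol 2 and 95.5 CPM or less elsewhere, lymphocyte markers stayed at 9.78 CPM or less, glial and neuronal markers at 43.3 to 243 CPM and monocyte and border macrophage markers at 126 to 818 CPM. The largest distance from its group mean over all genes belonged to replicate 1 of Protocol 1C Control, which also deviated for Bcl2a1b. The part of other cell types in the results was not tested. In bulk RNA, fewer cells of a type and less RNA per cell cannot be told apart.

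The response to HMGB1 was tested within each protocol with edgeR's quasi-likelihood test and Benjamini-Hochberg adjustment over all genes tested, with adjusted p below 0.05 as the call. In Protocol 1A, 5 of the 10 members rose and 4 fell, where 29.7% of 13489 genes rose and 31.6% fell. Protocol 1B gave 5 rises and 4 falls among the members, beside 29.8% and 32% of all genes. Protocol 1C gave 5 rises and 3 falls, beside 28.4% and 31.8%. Each of the 3 neonate-derived protocols therefore had Mcl1, Bcl2a1b, Bcl2a1d and Bid among the rises and Bmf, Bcl2 and Bcl2l11 among the falls. In Protocol 2, Bcl2a1d rose (1.21% of 15564 genes rose) and Bcl2l11 fell (0.283% fell). In Protocol 3, 0 members passed in either direction, where 0.123% of 15401 genes rose and 0% fell, and at an unadjusted p under 0.05 there were 2 members (Bcl2a1d and Bcl2l11) and 806 genes, 5.23% of those tested. The Wald test of DESeq2 also called 0 members there. With the replicate numbers as a block, which the correlations of same-numbered libraries allow, Protocol 3 gave 3 rises (Mcl1, Bcl2a1d and Bcl2l11) and Protocol 2 gave 3 rises (Bcl2l1, Bcl2a1b and Bcl2a1d) and 2 falls (Bmf and Bcl2l11). The shares of all genes given above belong to the fits without the block. Shares with the block were not counted, so these counts of members have no background. The median log2 fold change of the members was 0.08, 0.17 and 0.29 for Protocols 1A, 1B and 1C, 0.09 for Protocol 2 and 0.04 for Protocol 3, and that of all genes lay between -0.04 and 0.00.

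**Figure D1:**
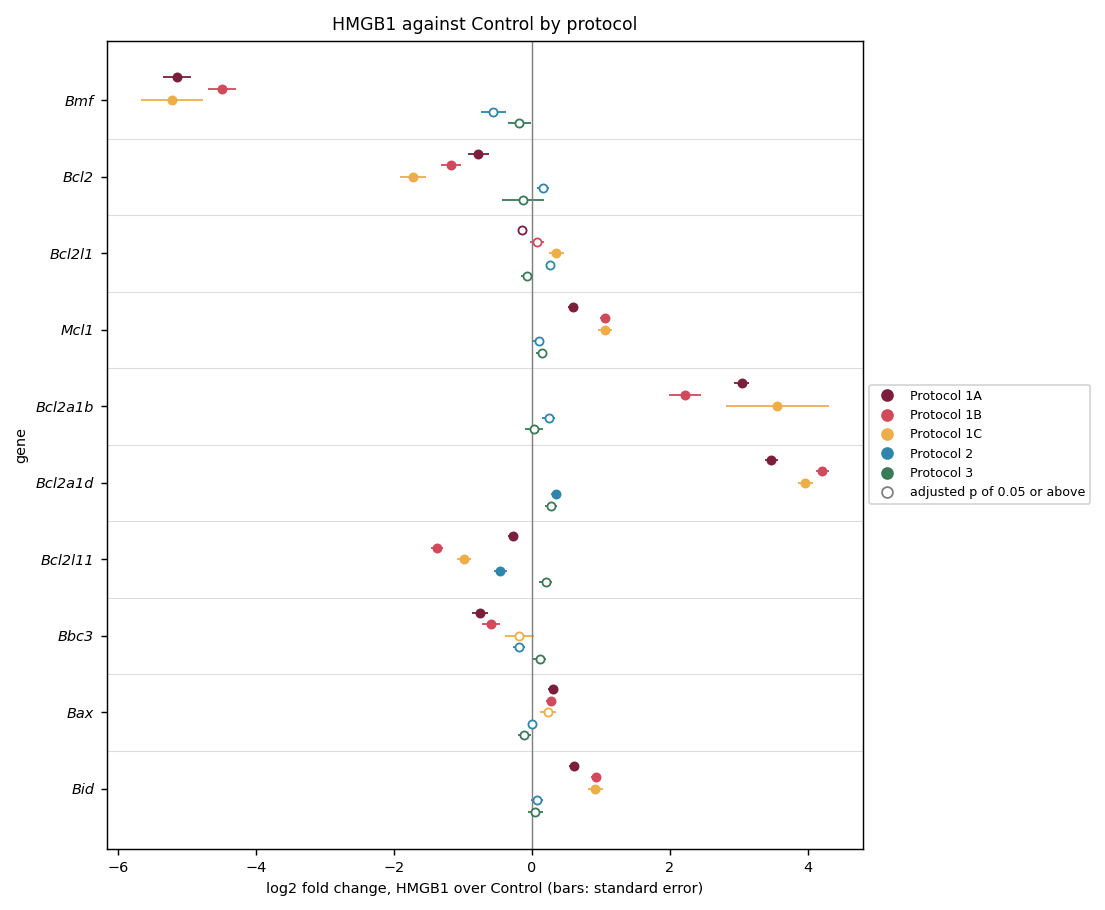
Log2 fold change of HMGB1 over Control for the 10 members (down the page) in the 5 protocols (colours), with bars for the standard error of the edgeR fit and open points where the adjusted p was 0.05 or above. Bmf lies between -5.22 and -4.49 in the 3 neonate-derived protocols and Bcl2a1d between 3.47 and 4.21, while the points of Protocols 2 and 3 stay between -0.56 and 0.35; the small rises of Bax in Protocols 1A and 1B take the opposite sign when libraries are scaled by totals alone.

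Scaling decides the sign of small changes in the neonate-derived protocols. With library totals in place of TMM, the median of all genes moved by -0.42, -0.47 and -0.63 on the log2 scale in Protocols 1A, 1B and 1C and by no more than 0.03 in size in Protocols 2 and 3. Among the members, the sign of the response then turned in Bax in Protocols 1A, 1B and 1C, in Bcl2l1 in Protocols 1B and 1C, and in Bcl2a1b in Protocol 3, where the value was near 0 under either scaling. Relative to the median of all genes the change of Bax was the same to within 0.01 under both scalings, at 0.34, 0.29 and 0.27 above it. Rises of Mcl1 and Bid kept their calls with library totals but were smaller, at 0.17, 0.59 and 0.43 for Mcl1 and 0.18, 0.45 and 0.30 for Bid in Protocols 1A, 1B and 1C. Falls were larger, with Bcl2l11 at -0.70 and Bcl2 at -1.20 in Protocol 1A, Bcl2l11 at -1.61 in 1C, and Bbc3 at -1.17 in 1A and -1.06 in 1B.

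Bcl2a1b and Bcl2a1d encode mouse A1, the pro-survival protein that NF-kB induces in cells of the blood lineage, and they belong to a cluster of near-identical copies on chromosome 9. In the positions of the count table, Bcl2a1d (ENSMUSG00000099974, minus strand, 863 bases of exon) lies at chr9:88723285-88731914 and Bcl2a1b (ENSMUSG00000089929, plus strand, 817 bases) at chr9:89199209-89207827. A further copy, Bcl2a1a (ENSMUSG00000102037, chr9:88956900-88962419, plus strand), is no member of the list, and Bcl2a1c had 0 counts in all 30 libraries. The coding sequences in GENCODE M21 have 516 bases each. Bcl2a1b and Bcl2a1d differ at 6 of them, Bcl2a1a and Bcl2a1d at 7, and Bcl2a1a and Bcl2a1b at 11. The first 120 coding bases hold 7 of the 12 positions at which any copy differs. They are printed here because they show how few bases tell the copies apart, with those 7 positions in capitals.
Bcl2a1a: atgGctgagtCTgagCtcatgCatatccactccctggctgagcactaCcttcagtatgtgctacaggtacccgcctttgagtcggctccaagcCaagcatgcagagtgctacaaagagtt
Bcl2a1b: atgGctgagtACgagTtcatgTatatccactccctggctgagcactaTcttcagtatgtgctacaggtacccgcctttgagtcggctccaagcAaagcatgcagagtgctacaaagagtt
Bcl2a1d: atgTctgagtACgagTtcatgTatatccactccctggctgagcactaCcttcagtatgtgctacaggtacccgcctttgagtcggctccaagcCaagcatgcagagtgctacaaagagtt

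Of all stretches of 100 bases in the mature transcripts, 31.1% of those of Bcl2a1b, 54.7% of those of Bcl2a1d and 43.5% of those of Bcl2a1a also occur, base for base, in another of the 3 copies. How reads with several matches were assigned is not given in the sources used here. The split between copies is therefore uncertain, and values for the sum of the copies are given with the results.

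Bcl2a1d rose in 4 of the 5 protocols. It had 344, 333 and 334 CPM with HMGB1 in Protocol 1A, against 25.3, 33.1 and 31.1 CPM in Control, a 11.1-fold rise (log2 fold change 3.47, SE 0.0940, adjusted p = 5.23e-12). In Protocol 1B the HMGB1 libraries held 389.7, 462 and 387 CPM, against 22.7, 22.9 and 21.4 CPM in Control (4.21, SE 0.0930, adjusted p = 1.55e-10). Protocol 1C had the highest levels, 593, 625 and 711 CPM with HMGB1 and 39.7, 39.3 and 44.9 CPM in Control (3.97, SE 0.114, adjusted p = 2.71e-10). Every HMGB1 library of these protocols was several times above every Control library. In Protocol 2 the gene was measured at 119.6, 128 and 135 CPM with HMGB1 and stood at 94.5, 102 and 104 CPM in Control, a rise of 0.35 (SE 0.0651, adjusted p = 0.0195) with no overlap. That call was lost without 5 of the 6 libraries, all but HMGB1 replicate 1 (adjusted p 0.0593 to 0.123, log2 fold change 0.31 to 0.37). It was kept with the replicate numbers as a block. Protocol 3 gave 43.0, 48.7 and 46.5 CPM with HMGB1 and 37.4, 41.8 and 36.0 CPM in Control, also without overlap, but the difference of 0.28 did not pass (SE 0.0878, adjusted p = 0.643). With the replicate numbers as a block it passed at adjusted p = 0.0174.

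Bcl2a1b also rose in Protocols 1A, 1B and 1C, at lower CPM than Bcl2a1d except in Protocol 1B Control, where it was higher. The HMGB1 libraries of Protocol 1A held 81.6, 73.2 and 64.0 CPM, against 9.04, 9.23 and 7.77 CPM in Control (3.04, SE 0.107, adjusted p = 2.82e-11). Protocol 1B had 113, 149 and 199 CPM with HMGB1, against 30.6, 38.7 and 30.1 CPM in Control (2.22, SE 0.237, adjusted p = 0.000331). In Protocol 1C there were 111, 174 and 179 CPM with HMGB1, against 2.40, 17.4 and 19.1 CPM in Control (3.56, SE 0.747, adjusted p = 0.0131). Replicate 1 of that Control group had 45 counts where the other libraries had 444 and 461, and without it the response was 3.09 (adjusted p = 0.000243). Protocol 2 gave 45.8, 50.1 and 44.1 CPM with HMGB1 and 44.7, 35.5 and 37.6 CPM in Control, with overlap (0.24, adjusted p = 0.400; 0.25 and adjusted p = 0.0219 with the replicate numbers as a block). In Protocol 3 the values were 29.7, 21.3 and 24.9 CPM with HMGB1 and 22.6, 24.2 and 28.6 CPM in Control, intermingled (0.03, adjusted p = 0.995).

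The 3 copies did not keep a fixed ratio. In Control, the share of Bcl2a1b in the counts of all copies was 56.8 to 62.1% in Protocol 1B, against 17.2 to 22.3% in Protocol 1A and 3.97 to 24.6% in Protocol 1C. Bcl2a1a moved the other way, with 1.13 to 1.46% in Protocol 1B Control, against 12.2 to 15.2% in 1A Control and 17.5 to 30.4% in 1C Control. It had 81.3, 73.0 and 66.5 CPM with HMGB1 in Protocol 1B, against 0.613, 0.702 and 0.762 CPM in Control (log2 fold change 6.72). In Protocol 1A it had 144, 145 and 139 CPM with HMGB1, against 6.17, 5.90 and 6.36 CPM in Control (4.51). Without GM-CSF (1B against 1A, Control), Bcl2a1b was higher by 1.97 (adjusted p = 0.0107), Bcl2a1d was lower by 0.38 (log2 fold change -0.38, adjusted p = 0.00438), and the sum of the copies was higher by 0.37 (adjusted p = 0.00416), so the sign for Bcl2a1d turns on the sum.

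The summed copies averaged 552 CPM with HMGB1 and 44.7 CPM in Control in Protocol 1A, 640.0 CPM with HMGB1 and 56.2 CPM in Control in Protocol 1B, and 1037 CPM with HMGB1 and 69.7 CPM in Control in Protocol 1C. They averaged 231 CPM with HMGB1 and 172 CPM in Control in Protocol 2, and 88.6 CPM with HMGB1 and 78.0 CPM in Control in Protocol 3. On the sum, the HMGB1 response was 3.60 in Protocol 1A, 3.51 in Protocol 1B, 3.90 in Protocol 1C, 0.42 in Protocol 2 (adjusted p = 0.00310) and 0.20 in Protocol 3 (adjusted p = 0.803). The sum of the copies thus passed in the 4 cultured protocols. Between Control groups the sum differed by -0.53 for Protocol 1 against Protocol 3, 1.06 for Protocol 2 against Protocol 3, -1.59 for Protocol 1 against Protocol 2 and 0.66 for Protocol 1C against 1A.

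**Figure D2:**
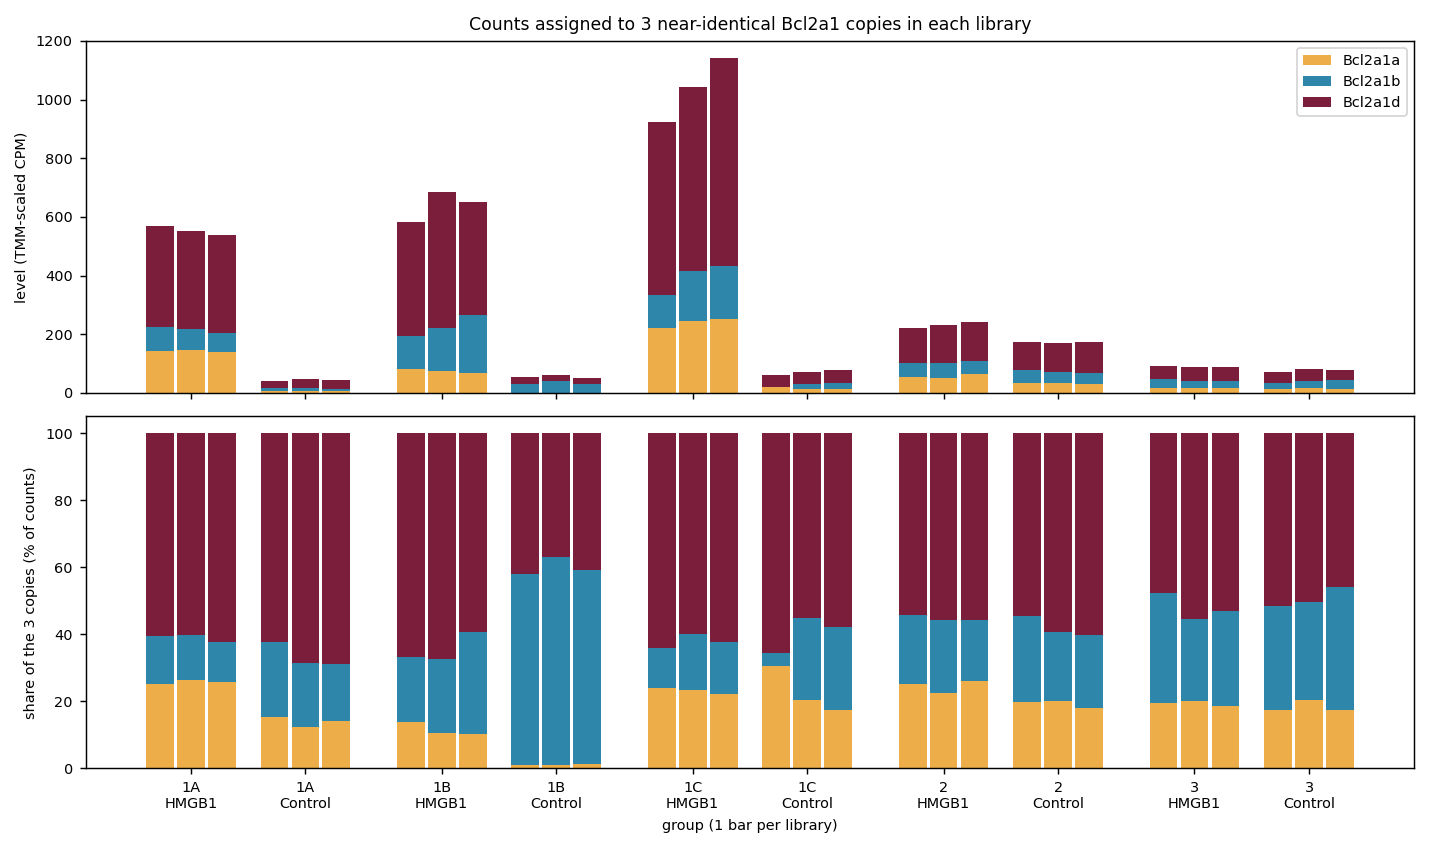
Level of Bcl2a1a, Bcl2a1b and Bcl2a1d in CPM, stacked (upper panel), and the share of each copy in their summed counts in percent (lower panel), with 1 bar per library and replicates 1 to 3 from left to right in each group. Bcl2a1b takes 56.8 to 62.1% of the counts in Protocol 1B Control and 3.97 to 24.6% in Protocol 1C Control, where the lowest share is that of replicate 1.

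The promoters of Bcl2a1a, Bcl2a1b and Bcl2a1d hold 2 motif matches side by side. RefSeq promoters (250 bases before to 50 after the start, GRCm38.p6) were found for 10 of 10 members, 17 promoters in all, and were searched on both strands for 5 motifs. The AP-1-like pattern TGANTCA, where N is any base, occurs in 7.81% of all 32851 promoters and the PU.1 motif GAGGAAGTG in 1.57%. Among the members only the promoters of Bcl2a1b and Bcl2a1d hold either. In Bcl2a1a, Bcl2a1b and Bcl2a1d the base at N is A (TGAATCA), so these are matches to the loose pattern only. The matches lie 9 bases apart in Bcl2a1a and Bcl2a1b and 3 in Bcl2a1d, without overlap. The stretches are chr9:88956790-88956834 (plus) for Bcl2a1a, chr9:89199099-89199143 (plus) for Bcl2a1b and chr9:88731936-88731974 (minus) for Bcl2a1d. The members and motifs were chosen with the responses known, and the copies are near-identical, so their matches are not independent. The promoter of Bcl2a1c, which had 0 counts in every library, also holds the PU.1 match. Whether the matches bear on the rises was not tested. The stretches are shown to mark where the matches lie, and capitals mark first the AP-1-like match and then the PU.1 match.
Bcl2a1a: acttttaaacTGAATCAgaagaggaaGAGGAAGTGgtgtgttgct
Bcl2a1b: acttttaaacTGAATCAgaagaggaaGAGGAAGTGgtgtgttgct
Bcl2a1d: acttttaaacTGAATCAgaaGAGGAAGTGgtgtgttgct

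The NF-kB consensus was found in promoters of Bbc3, Bcl2l1 and Bmf (8.46% of all promoters), the FOXO motif GTAAACA in those of Bbc3 and Bcl2l11 (3.65%), and the CRE motif TGACGTCA in those of 0 members (1.79%). These are matches of letters and show no binding.

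Mcl1, which encodes a short-lived pro-survival protein that myeloid cells depend on, had the highest level per kb of all members in the Control cells of every protocol. It lies at chr3:95658788-95663176 (ENSMUSG00000038612, plus strand, 3418 bases). In Protocol 1A it was measured at 1013, 1029 and 1054 CPM with HMGB1, against 629, 662 and 730.4 CPM in Control (0.59, SE 0.0685, adjusted p = 4.54e-06). Protocol 1B had 1039.5, 1165 and 1085 CPM with HMGB1, against 559, 520.3 and 500.5 CPM in Control (1.07, SE 0.0714, adjusted p = 3.21e-07). In Protocol 1C the values were 1013, 1163 and 1178 CPM with HMGB1, against 508, 517 and 591 CPM in Control (1.06, SE 0.106, adjusted p = 4.54e-06). No Control library reached an HMGB1 library in these protocols, and the rise was 1.51-fold in Protocol 1A, 2.09-fold in 1B and 2.09-fold in 1C. Per kb, Mcl1 in Protocol 1A stood at 302 ± 6.02 CPM with HMGB1, below Bcl2a1d at 390.2 ± 7.30, and at 197 ± 15.1 CPM in Control, above Bcl2a1d at 34.6 ± 4.69 (SD, n = 3 each). Protocol 2 gave 546, 601 and 604 CPM with HMGB1 and 493, 549.8 and 588 CPM in Control, with overlap (0.10, adjusted p = 0.846). The highest levels were in Protocol 3, 1978, 1985 and 1682 CPM with HMGB1 and 1719, 1810.1 and 1639 CPM in Control, again with overlap (0.14, adjusted p = 0.995; with the replicate numbers as a block, adjusted p = 0.0475). Mcl1 and the A1 genes are also expressed by neutrophils, whose markers were highest in Protocol 3, and their part in these levels was not tested.

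Bcl2l1, which encodes BCL-XL, responded little to HMGB1. It lies at chr2:152780668-152831728 (ENSMUSG00000007659, minus strand, 4586 bases). In Protocol 1C it had 185, 202 and 236 CPM with HMGB1, against 143, 168 and 177 CPM in Control, a rise of 0.36 (SE 0.112, adjusted p = 0.0161) under TMM and a value of -0.28 (adjusted p = 0.0262) under library totals. The call was lost without HMGB1 replicate 3 (0.25, adjusted p = 0.0851) and without Control replicate 1 (0.27, adjusted p = 0.0501). Protocol 1A gave -0.14 (adjusted p = 0.0595), -0.57 (adjusted p = 1.84e-06) under library totals and a call without Control replicate 1 (-0.18, adjusted p = 0.0470). Protocol 1B gave 0.08 (adjusted p = 0.545), -0.40 (adjusted p = 0.00391) under library totals and a call without HMGB1 replicate 1 (0.19, adjusted p = 0.0243). In Protocol 2 all 3 HMGB1 libraries (146, 147 and 141 CPM) lay above the Control libraries (125, 117 and 119 CPM). That difference of 0.26 (SE 0.0595) just missed the threshold with adjusted p = 0.0610, and it passed with the replicate numbers as a block (adjusted p = 9.74e-06) and without Control replicate 1 (0.30, adjusted p = 0.0475). In Protocol 3 the libraries were intermingled at 290.1 to 299 CPM with HMGB1 and 276 to 341 CPM in Control.

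Bcl2, the founding pro-survival gene of the family, fell in Protocols 1A, 1B and 1C. It lies at chr1:106538178-106714274 (ENSMUSG00000057329, minus strand, 9157 bases) and had low levels throughout. Protocol 1A gave 9.49, 7.30 and 9.51 CPM with HMGB1, against 17.5, 13.2 and 13.3 CPM in Control (-0.78, SE 0.153, adjusted p = 0.000577). In Protocol 1B there were 10.6, 7.36 and 7.66 CPM with HMGB1, against 17.7, 19.4 and 20.5 CPM in Control (-1.17, SE 0.146, adjusted p = 4.25e-05). The fall in Protocol 1C was 3.31-fold, with 6.06, 4.55 and 6.46 CPM under HMGB1 and 22.4, 19.7 and 14.96 CPM in Control (-1.73, SE 0.190, adjusted p = 1.05e-05). The groups were separate in all 3. The adult-derived protocols differed in level. Protocol 2 had 17.3, 16.3 and 16.2 CPM with HMGB1 and 14.4, 14.9 and 14.9 CPM in Control (0.17, adjusted p = 0.656), with every HMGB1 library above the Control libraries. Protocol 3 had 1.86, 2.73 and 4.06 CPM with HMGB1 and 2.51, 2.95 and 4.0 CPM in Control, with overlap (-0.13, adjusted p = 0.995).

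**Figure D3:**
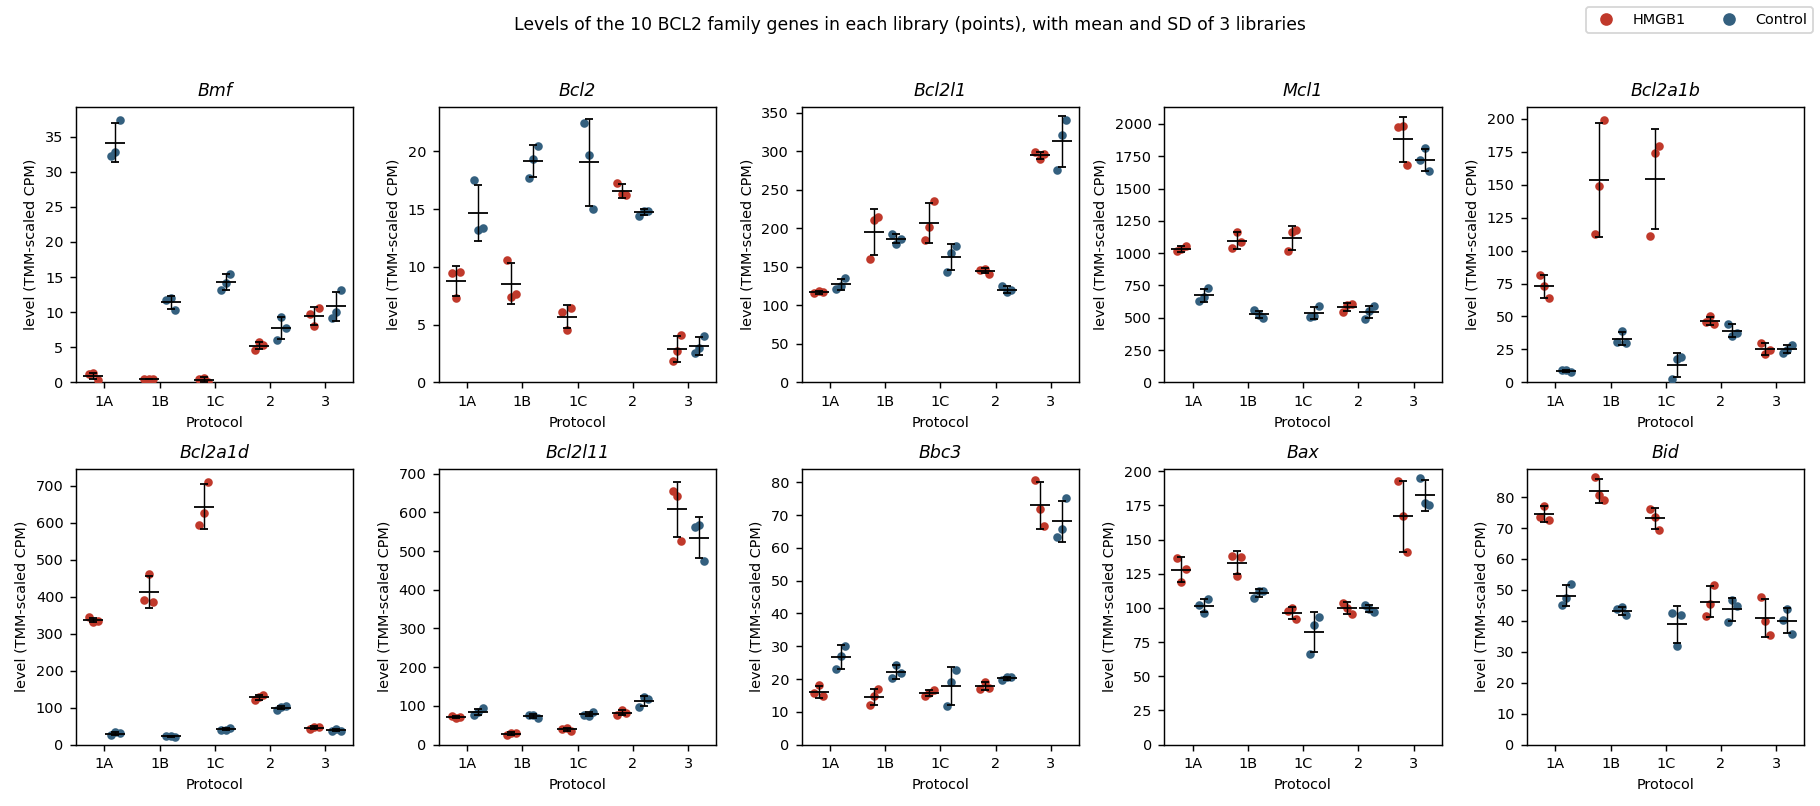
Level of each member in CPM (linear axes from 0) in every library (points), with the mean and SD of 3 libraries, HMGB1 left of Control in each protocol. Bmf falls to between 0 and 1.27 CPM in the HMGB1 libraries of Protocols 1A, 1B and 1C, and Bcl2l11 stands between 474 and 655 CPM in Protocol 3 alone.

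Bmf had the widest range of all members, 90.6-fold between the highest group mean and the lowest. It encodes a BH3-only protein that is held by dynein light chain at the cytoskeleton in resting cells, and it lies at chr2:118528757-118549687 (ENSMUSG00000040093, minus strand, 5253 bases). With HMGB1 in Protocol 1A it had 1.14, 1.27 and 0.402 CPM, against 32.3, 32.8 and 37.4 CPM in Control, a 35.4-fold fall (-5.14, SE 0.203, adjusted p = 2.87e-10). Protocol 1B had 0.437, 0.495 and 0.541 CPM with HMGB1, against 11.8, 12.1 and 10.4 CPM in Control (-4.49, SE 0.202, adjusted p = 1.48e-08). The HMGB1 libraries of Protocol 1C held 0.490, 0.642 and 0 CPM, or 11, 11 and 0 counts, against 13.2, 14.1 and 15.5 CPM in Control (-5.22, SE 0.448, adjusted p = 7.92e-06). Treated neonate-derived cells thus held 26 counts of the transcript or fewer in each library. In Protocol 2 all HMGB1 libraries (4.66, 5.72 and 5.37 CPM) were below the Control libraries (6.09, 9.27 and 7.80 CPM), and the difference of -0.56 (SE 0.178) did not pass (adjusted p = 0.237; with the replicate numbers as a block, -0.55 and adjusted p = 0.00621). Protocol 3 gave 9.69, 8.02 and 10.5 CPM with HMGB1 and 9.22, 10.01 and 13.2 CPM in Control, with overlap (-0.18, adjusted p = 0.995).

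Bcl2l11, the gene of BIM, fell in all 4 cultured protocols. It lies at chr2:128126038-128162547 (ENSMUSG00000027381, plus strand, 8029 bases). Protocol 1A had 72.7, 68.4 and 71.8 CPM with HMGB1, against 77.3, 83.2 and 93.6 CPM in Control, a small fall (-0.28, SE 0.0732, adjusted p = 0.00450). Without GM-CSF, in Protocol 1B, the fall was 2.58-fold, with 25.1, 30.7 and 29.5 CPM under HMGB1 and 77.2, 76.0 and 68.7 CPM in Control (-1.37, SE 0.0887, adjusted p = 2.47e-07). Protocol 1C lay between them at 40.7, 42.6 and 35.1 CPM with HMGB1 and 77.4, 74.1 and 83.8 CPM in Control (-0.98, SE 0.0973, adjusted p = 4.11e-06). Control levels were close in these 3 protocols, and the treated libraries differed. In Protocol 2 the gene fell to 76.5, 88.6 and 81.5 CPM with HMGB1, against 97.5, 122 and 118 CPM in Control (-0.46, SE 0.0886, adjusted p = 0.0277). The call was lost without HMGB1 replicate 1 or 3 or Control replicate 2 or 3 (log2 fold change -0.45 to -0.39, adjusted p 0.0544 to 0.193). It was kept with the replicate numbers as a block. Protocol 3 stood far above the rest, at 655, 643 and 525 CPM with HMGB1 and 561, 568 and 474 CPM in Control, with overlap (0.20, SE 0.0930, adjusted p = 0.948; with the replicate numbers as a block, adjusted p = 0.00191).

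Bbc3 encodes PUMA, a BH3-only protein best known as a p53 target, and lies at chr7:16308393-16318205 (ENSMUSG00000002083, plus strand, 2124 bases). It fell in Protocol 1A, with 15.6, 18.2 and 14.7 CPM under HMGB1 and 23.0, 27.0 and 30.2 CPM in Control (-0.75, SE 0.117, adjusted p = 7.94e-05), and in Protocol 1B, with 12.1, 14.8 and 16.9 CPM under HMGB1 and 20.3, 24.3 and 21.8 CPM in Control (-0.59, SE 0.131, adjusted p = 0.00264). The HMGB1 libraries were below every Control library in both. In Protocol 1C the HMGB1 libraries (14.9, 15.6 and 16.7 CPM) lay within the range of the Control libraries (11.6, 19.1 and 22.9 CPM), of which replicate 1 was lowest (-0.18, adjusted p = 0.479). Without that library the log2 fold change was -0.41 and passed (adjusted p = 0.0185). Protocol 2 gave 17.1 to 19.1 CPM with HMGB1 and 19.6 to 20.5 CPM in Control (-0.18, adjusted p = 0.582), and Protocol 3 gave 66.6 to 80.7 CPM with HMGB1 and 63.4 to 75.2 CPM in Control (0.11, adjusted p = 0.995).

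Bid, the BH3-only gene that links death receptors to mitochondria, rose in the neonate-derived protocols. It lies at chr6:120891930-120916853 (ENSMUSG00000004446, minus strand, 3550 bases) and overlaps Bcl2l13 on the opposite strand, with mean counts of 1116 for Bid and 767 for Bcl2l13. Since the strand setting of the counting is not given in the sources used here, its values are uncertain. Protocol 1A had 73.7, 77.3 and 72.5 CPM with HMGB1, against 45.0, 47.5 and 51.7 CPM in Control (0.61, SE 0.0676, adjusted p = 3.01e-06). Protocol 1B had 78.9 to 86.4 CPM under HMGB1 and 41.9 to 44.4 CPM in Control (0.92, SE 0.0665, adjusted p = 5.63e-07). Protocol 1C had 69.5 to 76.1 CPM under HMGB1 and 32.0 to 42.6 CPM in Control (0.92, SE 0.113, adjusted p = 2.47e-05). No HMGB1 library overlapped the Control libraries. In Protocols 2 and 3 they were mixed, at 41.6 to 51.7 CPM with HMGB1 and 39.7 to 46.6 CPM in Control of Protocol 2 (0.08, adjusted p = 0.917) and 35.6 to 47.6 CPM with HMGB1 and 35.8 to 44.0 CPM in Control of Protocol 3 (0.05, adjusted p = 0.995).

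Bax, the effector that forms the pore, lies at chr7:45461697-45466898 (ENSMUSG00000003873, minus strand, 1576 bases). Under TMM scaling it rose slightly in Protocol 1A, with 137, 119 and 129 CPM under HMGB1 and 102, 96.5 and 106 CPM in Control (0.31, SE 0.0694, adjusted p = 0.00162), but under library totals the value was -0.12 (adjusted p = 0.118). In Protocol 1B it had 138, 123 and 137 CPM with HMGB1 and 107, 112 and 112 CPM in Control, a rise of 0.27 (SE 0.0650, adjusted p = 0.00396) under TMM and a value of -0.20 (adjusted p = 0.0339) under library totals. Protocol 1C gave 0.23 (adjusted p = 0.110) under TMM, 0.32 (adjusted p = 0.0439) without Control replicate 3, and -0.40 (adjusted p = 0.0125) under library totals. The sign of the Bax response was therefore set by the scaling. In Protocol 2 the levels were 95.8 to 104 CPM with HMGB1 and 96.9 to 102 CPM in Control, and the 95% interval of the log2 fold change ran from -0.12 to 0.12. Protocol 3 gave 141 to 193 CPM with HMGB1 and 175 to 195 CPM in Control (-0.11, adjusted p = 0.995).

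Whether responses differed between protocols was tested by interaction contrasts in a fit of all 30 libraries, in which the average of 1A, 1B and 1C stood for Protocol 1. A positive value means that the response on the log2 scale was higher in the protocol named before Protocol 1 or 1A. The contrasts share the Protocol 1 or 1A libraries and are not independent. Between Protocol 2 and Protocol 1, 8 of 10 members differed, where 43.6% of 18182 genes did. The response was higher in Protocol 2 for Bmf (4.40, SE 0.298), Bcl2 (1.39) and Bcl2l11 (0.42) and lower for Bcl2a1d (-3.54, SE 0.106), Bcl2a1b (-2.69), Mcl1 (-0.81), Bid (-0.74) and Bax (-0.27, adjusted p = 0.0494; 0.24 under library totals). Against Protocol 1A alone the value for Bcl2l11 was -0.20 (adjusted p = 0.314), so its smaller fall in Protocol 2 passed only against the mean that includes 1B and 1C. Bax kept the call only without 1A HMGB1 replicate 2, 1A Control replicate 3, 1B HMGB1 replicate 2, 1C HMGB1 replicate 3, 1C Control replicate 2 or 3, or Protocol 3 HMGB1 replicate 1 or 3, and lost it without any of the other 22 libraries (-0.30 to -0.22, adjusted p 0.0538 to 0.132). Bbc3 (0.32, adjusted p = 0.142) would pass without 1C Control replicate 1 (0.40, adjusted p = 0.0141). On the sum of the Bcl2a1 copies the difference was -3.26. Library totals gave -0.30 for Mcl1, 0.93 for Bcl2l11 and -0.24 for Bid, which lost the call (adjusted p = 0.0562), and Protocol 1A alone gave 0.92 for Bcl2 and -0.51 for Mcl1.

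Between Protocol 3 and Protocol 1, 9 of 10 members differed, beside 42.7% of all genes. Bmf (4.75, SE 0.297), Bcl2 (1.07), Bcl2l11 (1.06) and Bbc3 (0.60) had the higher response in Protocol 3. Lower responses were those of Bcl2a1d (-3.63, SE 0.110), Bcl2a1b (-2.93), Mcl1 (-0.78), Bid (-0.78) and Bax (-0.40; 0.10 under library totals). For Bcl2 the difference was 0.60 against Protocol 1A alone and no longer passed (adjusted p = 0.132), and without Protocol 3 HMGB1 replicate 3 it was 0.71 (adjusted p = 0.0426). On the sum of the Bcl2a1 copies the difference was -3.49. Library totals gave -0.28 for Mcl1, -0.29 for Bid and 1.10 for Bbc3, and Protocol 1A alone gave -0.49 for Mcl1 and 0.44 for Bcl2l11, all still past the threshold. The share of members is above the background here and between Protocols 2 and 1, but the members were chosen with these responses known.

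Within the neonate-derived cells, the response without GM-CSF (1B against 1A) differed for 3 of 10 members, where 6.9% of all genes differed. Bcl2l11 fell further in 1B (-1.12, SE 0.144, adjusted p = 2.66e-06), and Mcl1 (0.44, adjusted p = 0.0178) and Bcl2a1d (0.71, adjusted p = 0.000358) rose further. On the sum of the Bcl2a1 copies the difference was -0.12 (adjusted p = 0.705), so that of Bcl2a1d turns with the counting. The call for Mcl1 was lost without 1A Control replicate 3, 1B HMGB1 replicate 2 or 1B Control replicate 3 (0.38 to 0.41, adjusted p 0.0564 to 0.0725). After 21 days of culture (1C against 1A), 5 members differed, beside 14% of all genes. The values were -0.98 for Bcl2 (adjusted p = 0.0110), -0.74 for Bcl2l11 (adjusted p = 0.000496), 0.44 for Mcl1 (adjusted p = 0.0117), 0.47 for Bcl2l1 (adjusted p = 0.0157) and 0.46 for Bcl2a1d (adjusted p = 0.0118). Bcl2l1 lost the call without 1A Control replicate 3, 1C HMGB1 replicate 3 or 1C Control replicate 1 (0.36 to 0.42, adjusted p 0.0504 to 0.0823), and Bcl2a1d without 1A Control replicate 2 or 1C HMGB1 replicate 3 (0.38, adjusted p 0.0543 to 0.0589) or on the sum of copies (0.26, adjusted p = 0.169). With library totals Bcl2l1 (0.29, adjusted p = 0.118) and Bcl2a1d (0.28, adjusted p = 0.0601) were not called, and Mcl1 was at 0.26. Bbc3 (0.53, adjusted p = 0.114) would pass without 1C Control replicate 3 (0.74, adjusted p = 0.0146). Bcl2l11, Mcl1 and Bcl2a1d were called in both comparisons, which share the 1A libraries.

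Untreated cells were compared in a fit of the 15 Control libraries. In Protocol 1 against Protocol 3, 2 members were higher and 6 lower, where 37.3% of 17033 genes were higher and 42.9% lower, and the median over members was -0.85 against -0.12 over all genes. In Protocol 2 against Protocol 3 the counts were also 2 and 6, beside 40.1% and 37.2%, with a median of -0.77 against 0.08. The 2 comparisons share the Protocol 3 libraries. The acutely isolated cells of Protocol 3 had more of the BH3-only transcripts Bcl2l11 and Bbc3, of Bax, and of the pro-survival transcripts Mcl1 and Bcl2l1, and less Bcl2. Bcl2l11 averaged 84.7 ± 8.24, 74.0 ± 4.65 and 78.4 ± 4.92 CPM in Protocols 1A, 1B and 1C and 112 ± 13.04 CPM in Protocol 2, against 534 ± 52.6 CPM in Protocol 3 (SD, n = 3 each). The log2 fold change was -2.81 (SE 0.0683, adjusted p = 1.88e-18 in edgeR) for Protocol 1 and -2.33 (SE 0.0961) for Protocol 2. Bbc3 was lower than in Protocol 3 by 3.22-fold in Protocol 1 and 3.58-fold in Protocol 2, Mcl1 by 3.10-fold and 3.36-fold, Bcl2l1 by 2.07-fold and 2.76-fold, and Bax by 1.94-fold and 1.94-fold, with no overlap between libraries. Neutrophil markers summed to 575 to 1016 CPM in Protocol 3 Control, above all other Control groups. Neither their part in these differences nor that of the lower RNA integrity of Protocol 3 was tested.

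Bcl2 was 5.31-fold higher in Protocol 1 and 4.36-fold higher in Protocol 2 than in Protocol 3 (log2 fold change 2.41, SE 0.161, and 2.12, SE 0.179). Every Control library of the cultured protocols was above every Control library of Protocol 3. Bmf averaged 34.2 ± 2.80 CPM in Protocol 1A, 11.4 ± 0.909 CPM in Protocol 1B and 14.3 ± 1.17 CPM in Protocol 1C, against 10.8 ± 2.10 CPM in Protocol 3 (SD, n = 3 each), whose libraries overlapped those of 1B and, in 1 library each, those of 1C. For the mean of Protocol 1 against Protocol 3 the value was 0.66 (adjusted p = 5.80e-05), 1.59 for Protocol 1A alone and 1.10 under library totals. Bmf was lower in Protocol 2 than in Protocol 3 (-0.57, adjusted p = 0.00170), where the call was lost under library totals (-0.27, adjusted p = 0.121). Bcl2a1d was lower in Protocol 1 (-0.40, adjusted p = 5.69e-05; 0.05 under library totals) and higher in Protocol 2 (1.30, adjusted p = 6.80e-11) than in Protocol 3. Bcl2a1b did not pass in either (-0.74 and 0.56), and without replicate 1 of Protocol 1C Control both passed (-0.56, adjusted p = 3.59e-05, and 0.58, adjusted p = 0.000200). Bid differed by 0.06 and 0.04 and did not pass. Library totals shifted the median of all genes by 0.45 in the first comparison and 0.31 in the second, and the signs of Bcl2l11, Bbc3, Bax, Mcl1, Bcl2l1 and Bcl2 stayed, with Bcl2l1 at -0.60 and Bax at -0.50 in the first.

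**Figure D4:**
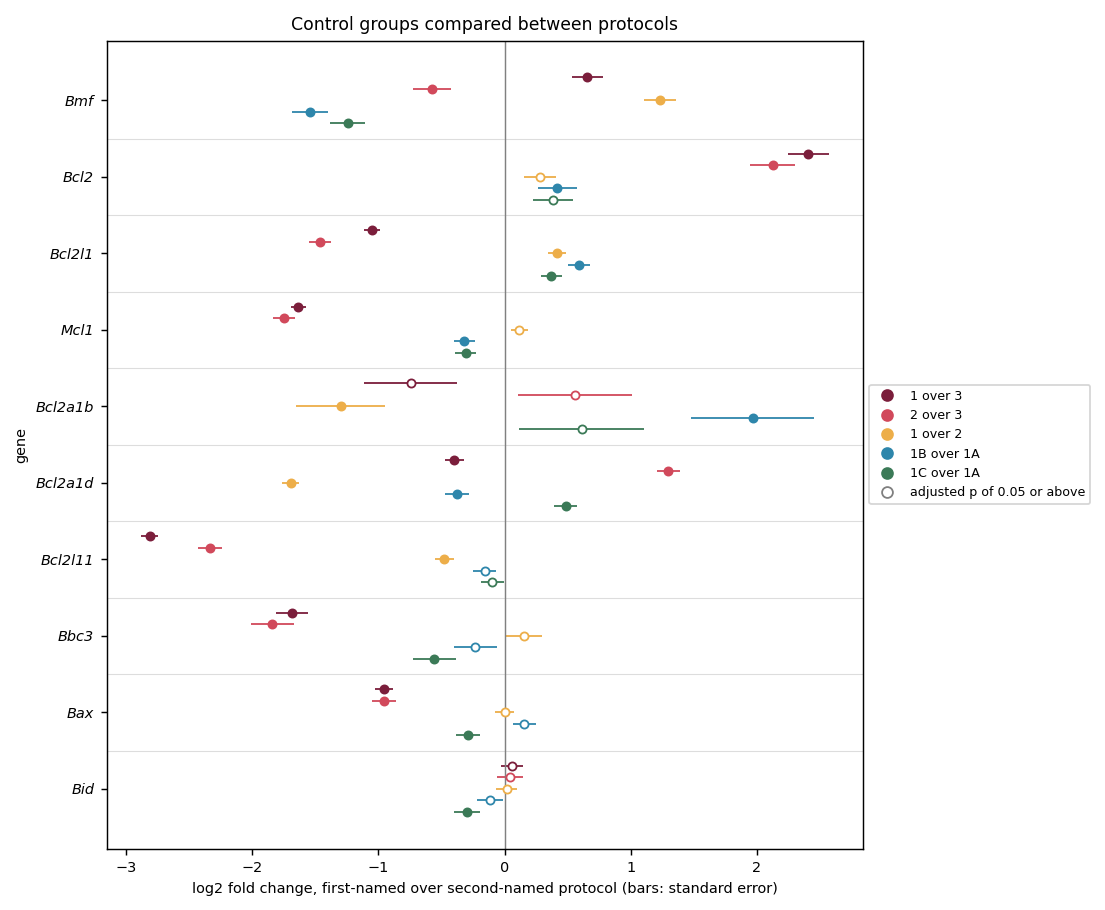
Log2 fold change between untreated groups for the 10 members (down the page) in 5 comparisons (colours, first-named over second-named protocol), with bars for the standard error and open points where the adjusted p was 0.05 or above. Bcl2l11 lies at -2.81 and -2.33 against Protocol 3 and Bcl2 at 2.41 and 2.12, while Bid stays within 0.06 of 0 in the comparisons of Protocols 1, 2 and 3.

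Protocol 1 against Protocol 2, both cultured, gave 2 members higher and 3 lower in Control, beside 24.6% and 30.7% of genes. Bmf was higher (1.23, adjusted p = 9.14e-08; 2.16 for Protocol 1A alone), as was Bcl2l1 (0.41, adjusted p = 4.92e-05; 0.09 and adjusted p = 0.377 for Protocol 1A alone). Lower in Protocol 1 were both A1 genes, Bcl2a1d by 3.24-fold (-1.70, SE 0.0684) and Bcl2a1b (-1.30, adjusted p = 0.00904; -2.16 for Protocol 1A alone), and Bcl2l11 (-0.48, adjusted p = 1.66e-05). Protocol 2 thus had the highest mean of both A1 genes among the Control groups. For Bcl2a1b its Control libraries (35.5 to 44.7 CPM) overlapped those of Protocol 1B (30.1 to 38.7 CPM). Bcl2 (0.28, adjusted p = 0.0695) did not pass and would pass without Protocol 1C Control replicate 3 or Protocol 3 Control replicate 3 (0.33, adjusted p = 0.0214, and 0.28, adjusted p = 0.0470). Bbc3 (0.15, adjusted p = 0.374) would pass without Protocol 1C Control replicate 1 (0.23, adjusted p = 0.0348). Mcl1 (0.12), Bax (0.00) and Bid (0.02) had 95% intervals of -0.02 to 0.25, -0.15 to 0.15 and -0.15 to 0.18.

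Leaving out GM-CSF (1B against 1A, Control) gave 3 members higher and 3 lower, beside 18.2% and 12.6% of genes. Bmf was 2.92-fold lower (-1.54, SE 0.143, adjusted p = 7.81e-08), Mcl1 was lower (-0.32, adjusted p = 0.00539), and Bcl2l1 was higher (0.59, adjusted p = 2.00e-05). The A1 genes moved in opposite directions, as given with their counts. Bcl2 was higher by 0.42 at adjusted p = 0.0474, kept the call only without 1A replicate 1, 1C replicate 1 or 3, or Protocol 3 replicate 1 or 3, and lost it without any of the other 10 libraries (0.35 to 0.48, adjusted p 0.0507 to 0.165) and with the replicate numbers as a block (adjusted p = 0.0571). That block joined equal numbers of different protocols, for which no pairing is stated or was checked, so it says nothing about pairs. Longer culture (1C against 1A, Control, sharing the 1A libraries) gave 2 higher and 5 lower, beside 13.1% and 7.91%. Bmf was again lower (-1.24, SE 0.140, adjusted p = 3.04e-06), and Bcl2l1 (0.37, adjusted p = 0.00317) and Bcl2a1d (0.48, adjusted p = 0.000725) were higher. Mcl1 (-0.31, adjusted p = 0.00994) was not called without 1A replicate 3 (-0.25, adjusted p = 0.0601), and Bax (-0.29, adjusted p = 0.0310) was not without 1A replicate 1 or 3 or 1C replicate 1 (-0.28 to -0.16, adjusted p 0.0819 to 0.147, with -0.16 without 1C replicate 1).

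Bbc3 (-0.56, adjusted p = 0.0290) was not called in 1C against 1A without 1A replicate 2 or 3 or 1C replicate 1 or 2 (-0.60 to -0.34, adjusted p 0.0555 to 0.110, with -0.34 without 1C replicate 1). Bid (-0.30, adjusted p = 0.0451) kept the call only without 1C replicate 1 or 3, Protocol 2 replicate 1, or Protocol 3 replicate 2 or 3, and lost it without any of the other 10 libraries (-0.34 to -0.17, adjusted p 0.0505 to 0.232, with -0.17 without 1C replicate 2). Bcl2a1b (0.61, adjusted p = 0.456) would pass without replicate 1 of Protocol 1C Control (1.08, adjusted p = 2.35e-05). Bcl2 (0.38, adjusted p = 0.0898) would pass without 1A replicate 1 (0.53, adjusted p = 0.0363) or 1C replicate 3 (0.54, adjusted p = 0.0207). Bmf kept its call in both comparisons when any of the 15 libraries was left out.

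The make-up of the chosen members was described per kb of gene length, with no test. These members were chosen with their responses to HMGB1 known. The 5 pro-survival transcripts summed to 808, 1031 and 1307 CPM per kb in the HMGB1 groups of Protocols 1A, 1B and 1C, against 272, 263 and 259 in Control. The 5 pro-death transcripts summed to 119, 118 and 94.0 CPM per kb with HMGB1, against 108, 104 and 84.0 in Control. The ratio of these sums was 6.80 ± 0.198 with HMGB1 and 2.52 ± 0.0971 in Control in Protocol 1A, 8.77 ± 1.10 with HMGB1 and 2.53 ± 0.127 in Control in Protocol 1B, and 13.9 ± 1.94 with HMGB1 and 3.09 ± 0.125 in Control in Protocol 1C (SD, n = 3 each). In Protocol 2 it was 4.26 ± 0.202 with HMGB1 and 3.49 ± 0.149 in Control, and in Protocol 3 it was 3.07 ± 0.204 with HMGB1 and 2.85 ± 0.152 in Control. The means of the Control groups thus lay between 2.52 and 3.49, while among these groups both sums were highest in Protocol 3, at 648 and 228 CPM per kb. The share of the A1 genes Bcl2a1b and Bcl2a1d in the pro-survival sum was 59.3%, 64.6% and 71.4% in the HMGB1 groups of Protocols 1A, 1B and 1C, against 16.6%, 25.2% and 24.4% in Control. Mcl1 made up 37.4%, 31.2% and 25.1% with HMGB1, against 72.6%, 58.5% and 61.0% in Control. In Protocol 2 the A1 share was 50.1% with HMGB1 and 46.8% in Control, and in Protocol 3 it was 12.1% with HMGB1 and 11.6% in Control. Bcl2a1a and family members outside the chosen list, such as the pro-survival gene Bcl2l2, are not in these sums. The ratio therefore describes the chosen members and not the balance of the whole family. Bcl2l11 held 61.3% of the BH3-only sum with HMGB1 and 59.3% in Control in Protocol 3, and at most 37.5% in any other group. These are sums of RNA, and the proteins were not measured.

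**Figure D5:**
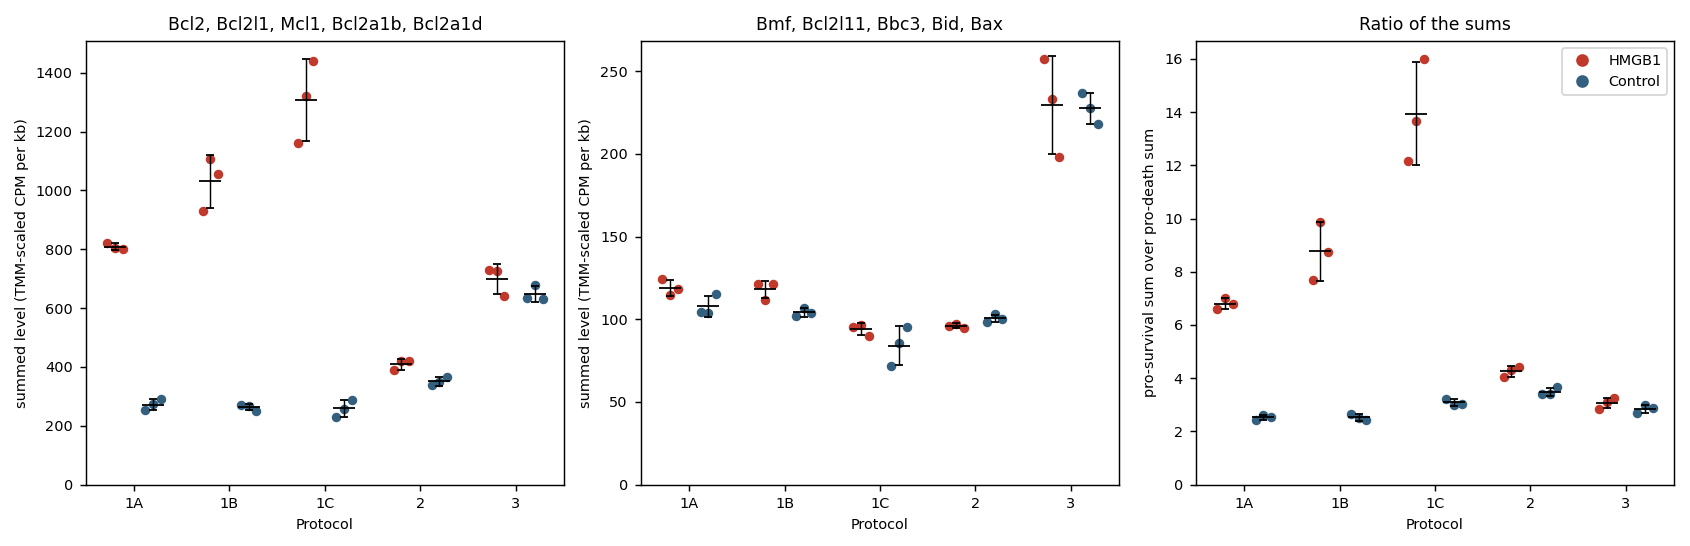
Summed level in CPM per kb of the 5 chosen pro-survival genes (left) and of the 5 chosen pro-death genes (middle), and the ratio of the sums (right), in every library (points) with the mean and SD of 3 libraries, HMGB1 left of Control in each protocol. The ratio lies between 2.52 and 3.49 in the Control groups and between 6.80 and 13.9 in the HMGB1 groups of Protocols 1A, 1B and 1C.

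The order of the 10 groups differed between members. Bmf was highest in Protocol 1A Control (mean 34.2 CPM) and next in Protocol 1C Control (14.3 CPM), and these 2 neighbours did not overlap. Protocol 1B Control, both Protocol 3 groups and Protocol 2 Control then followed with overlap from each to the next, and the 3 HMGB1 groups of Protocol 1 closed the order below Protocol 2 HMGB1. For Bcl2a1d only 2 of the 9 neighbouring pairs overlapped, with the HMGB1 groups of Protocols 1C, 1B and 1A on top and Protocol 1B Control last, a range of 28.8-fold. Bcl2l11 ranged over 21.4-fold, with Protocol 3 HMGB1 and Control overlapping at the top and Protocol 1B HMGB1 last. Ranges were 17.8-fold for Bcl2a1b, 6.65-fold for Bcl2, 5.00-fold for Bbc3, 3.57-fold for Mcl1 and 2.68-fold for Bcl2l1. Bax (2.21-fold) and Bid (2.11-fold) varied least, and 8 of the 9 neighbouring pairs of Bbc3 and 7 of those of Bid overlapped.

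Other genes of the pathway were taken from 4 lists, and their values stand here as the surroundings of the family. In Protocol 1A, where 29.7% of all genes rose and 31.6% fell, 10 of 16 further family members could be tested, of which 4 rose and 3 fell with a median log2 fold change of 0.02, against -0.04 over all genes. Among them Bcl2l2, the gene of the pro-survival protein BCL-W, rose (0.71), while Bnip3l, a BH3-like gene of mitophagy, fell (-0.68). Of 16 genes of caspase activation and its inhibition, 7 rose and 8 fell (median -0.05). The inhibitor genes Birc3 (2.12) and Birc2 (1.396) and the genes of caspase 7 (1.68) and cytochrome c (1.05) were among those that rose. Of 17 p53 target and regulator genes tested, 7 rose and 7 fell (median -0.06), with Fas, the death receptor upstream of BID, at 2.70, Cdkn1a at 1.90 and Trp53inp1 at -2.10. Of 15 partner and regulator genes, 7 rose and 4 fell (median -0.05). Nfkb1 (2.53) and Rela (1.30), which encode NF-kB subunits, rose, and Foxo3 (-1.14), whose product is known to drive Bcl2l11 and Bbc3, fell. Whether these changes bear on the A1 genes, Bcl2l11 or Bbc3 was not tested. Dynll1, the gene of the light chain that holds BMF, had -0.05 and did not pass (adjusted p = 0.583).

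In Protocol 1B, where 29.8% of all genes rose and 32% fell (median -0.02), the further family members gave 3 rises and 3 falls among 10 tested (median -0.05), the caspase genes 6 and 8 among 16 (-0.30), the p53 genes 6 and 6 among 17 (0.30) and the partners 8 and 5 among 15 (0.33). In Protocol 1C, where 28.4% rose and 31.8% fell (median -0.04), they gave 3 rises and 4 falls among 9 further family members (-0.03), 7 and 8 among 16 caspase genes (-0.41), 6 and 7 among 18 p53 genes (-0.30) and 7 and 4 among 15 partners (0.14). In Protocol 2, Bcl2a1a (0.77), Birc3 (1.01), Fas (0.94) and Nfkb1 (0.49) rose and Sesn1 (-0.43) fell, and no other gene of the 4 lists passed, beside 1.21% and 0.283% of all genes. In Protocol 3, 0 genes of the 4 lists passed in edgeR, where 1 caspase gene, 1 p53 gene, 1 partner gene and 0 further family members had an unadjusted p under 0.05. In Control cells, 12 of the 16 caspase genes had more and 2 had less RNA in Protocol 1 than in Protocol 3 (median 1.15, against -0.12 over all genes, of which 37.3% were higher and 42.9% lower), with Dffa at 3.19, Casp9 at 2.02 and Apaf1, the scaffold of the apoptosome, at 1.19. Nfkb1 averaged 102 CPM in Protocol 1 Control and 2126 CPM in Protocol 3 Control (-4.43, SE 0.0511), and Rela averaged 92.3 CPM in Protocol 1 Control and 473 CPM in Protocol 3 Control (-2.41, SE 0.0554). The p53 genes were divided there, with 6 higher and 10 lower of 18, among them Mdm2 (-2.17) and Sesn2 (-3.45), beside a lower Bbc3. Protocol 1 against Protocol 2 gave 3 of 18 p53 genes higher and 14 lower (median -0.70, against -0.02 over all genes, of which 24.6% were higher and 30.7% lower), where Bbc3 and Bax did not pass.

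Across the 10 group means, members could be paired by likeness of their log2 levels. Bcl2l11 and Bbc3 went together (Pearson r = 0.956), as did Bcl2a1b and Bcl2a1d (0.897), whose reads can be shared. Bcl2 ran against Mcl1 (-0.983) and Bmf against Bcl2a1b (-0.966) and Bcl2a1d (-0.936). Of 9505 genes, those most like each member were Cdc42ep3 for Bmf (0.977), Tubb5 for Bcl2 (0.996), Nnat for Bcl2l1 (0.959), Rela for Mcl1 (0.991), Crk for Bcl2a1b (0.968), Olfr56 for Bcl2a1d (0.993), Kdm6a for Bcl2l11 (0.993), Atf6 for Bbc3 (0.989), Polr3d for Bax (0.974) and Ppp3cb for Bid (0.989). These are descriptions over 10 means that share protocols, and the Protocol 3 groups stand far from the rest for Mcl1, Bcl2l11 and Bbc3.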

How the data were processed

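RNA was sequenced from microglia of 5 protocols with and without HMGB1, 3 libraries per group. The authors prepared libraries with the NEBNext Ultra II kit, used HISAT2 2.0.5 for alignment and featureCounts 1.5.0-p3 for gene counts. The deposited table holds these raw counts for all 30 libraries, with gene length, position and name. The genome build, the strand setting and the treatment of reads with several matches are not given in the sources used here. Gene length, a deposited annotation column, was used for levels per kb.

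Counts were tested with edgeR 4.0.16 (R 4.3.3, limma 3.58.1): filterByExpr, TMM factors, robust quasi-likelihood fits and Benjamini-Hochberg adjustment over all genes tested, threshold 0.05. HMGB1 responses were fitted within each protocol on 6 libraries, Control comparisons in a fit of 15, and differences of responses in a fit of 30. Each SE is the log2 fold change divided by the square root of F, and intervals use 1.96 SE. The procedure was tested on simulated data. DESeq2 1.42.0 served as an alternative. Further alternatives were library totals or DESeq2 size factors as scaling, no filter on low counts, a fold minimum, summed Bcl2a1 copies, Protocol 1A alone, only the groups compared, a replicate block, and each library left out. Python 3.11.15, pandas 2.3.3 and matplotlib 3.10.9 made sequence searches and plots.

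The members, lists and motifs were chosen with earlier results of these data known. All 10 members are named in each comparison. From each other list, at most 4 called genes (lowest adjusted p) and at most 2 abundant uncalled ones are named. Likeness is the Pearson correlation of log2(group mean CPM + 2) over protein-coding genes that reach 10 CPM in a group, and the closest of the 3 listed genes is named.

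Per the study, replicates were isolations from separate litters for neonates and from separate mice for adults, and Protocol 2 pooled 3 mice. Whether the HMGB1 and Control libraries of a number shared an isolation is not stated. Replicate numbers were checked for pairing from the correlations of same-numbered HMGB1 and Control libraries. These were 0.228, 0.289 and 0.433 in Protocol 1B, 0.215, 0.182 and 0.273 in 1C, 0.593, 0.510 and 0.427 in Protocol 2, 0.319, 0.289 and 0.460 in Protocol 3, and 0.165, 0.0730 and 0.185 in 1A. Numbers were read as likely pairs in all but 1A, which is an inference from the data. No cutoff separates 1A, since its replicate 3 (0.185) lay above replicate 2 of 1C (0.182). In every protocol each HMGB1 library was closest to the Control library of its own number. The main tests used no pairing in any protocol, and the replicate block was an alternative only.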

Additional observations from a re-analysis of the deposited data

Results flagged for a closer look

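These responses to HMGB1 differed between protocols by the test of the difference itself (edgeR contrast of the 2 responses, adjusted over 18182 genes). The values are differences of log2 fold changes.

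For Protocol 2 against Protocol 1 they were 4.40 for Bmf (adjusted p = 2.28e-13), 1.39 for Bcl2 (adjusted p = 1.21e-06), -0.81 for Mcl1 (adjusted p = 3.07e-08), -2.69 for Bcl2a1b (adjusted p = 1.23e-05), -3.54 for Bcl2a1d (adjusted p = 3.71e-22), 0.42 for Bcl2l11 (adjusted p = 0.00283), -0.27 for Bax (adjusted p = 0.0494) and -0.74 for Bid (adjusted p = 3.41e-06). The sign of Bax turned with library totals, and that of Bcl2l11 turned against Protocol 1A alone.

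For Protocol 3 against Protocol 1 they were 4.75 for Bmf (adjusted p = 2.73e-14), 1.07 for Bcl2 (adjusted p = 0.00111), -0.78 for Mcl1 (adjusted p = 5.50e-08), -2.93 for Bcl2a1b (adjusted p = 7.50e-06), -3.63 for Bcl2a1d (adjusted p = 2.43e-22), 1.06 for Bcl2l11 (adjusted p = 2.55e-09), 0.60 for Bbc3 (adjusted p = 0.00443), -0.40 for Bax (adjusted p = 0.00368) and -0.78 for Bid (adjusted p = 1.92e-06), with that of Bax again turning with library totals.

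For Protocol 1B against 1A they were 0.44 for Mcl1 (adjusted p = 0.0178), 0.71 for Bcl2a1d (adjusted p = 0.000358; turned on the sum of the copies) and -1.12 for Bcl2l11 (adjusted p = 2.66e-06). For Protocol 1C against 1A they were -0.98 for Bcl2 (adjusted p = 0.0110), 0.47 for Bcl2l1 (adjusted p = 0.0157), 0.44 for Mcl1 (adjusted p = 0.0117), 0.46 for Bcl2a1d (adjusted p = 0.0118) and -0.74 for Bcl2l11 (adjusted p = 0.000496).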

How the results depend on the processing

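Of 140 values for members, 87 were called, and 23 of these lost the call or turned under some alternative other than a fold minimum. A further 24 lost it only under the fold minimum, by construction. The causes were not tested beyond what each alternative changes by construction. Shares of all genes called were not counted under the alternatives, so the counts of members below stand without a background.

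With library totals in place of TMM, these changes turned in sign in the response: Bax to -0.12, -0.20 and -0.40 in Protocols 1A, 1B and 1C, Bcl2l1 to -0.40 in 1B and -0.28 in 1C, and Bcl2a1b to -0.0030 in Protocol 3. Bcl2a1d in Protocol 1 against Protocol 3 Control became 0.054. The difference of responses for Bax became 0.24 (Protocol 2 against 1) and 0.10 (Protocol 3 against 1), and that for Bcl2l1 0.32 (Protocol 3 against 1). Counts became 6 falls in Protocol 1C, where the median of all genes was then -0.67. They became 4 members higher in Protocol 1 against Protocol 2 Control, 5 higher and 3 lower in the Protocol 2 against 1 difference, and 1 higher in the 1C against 1A difference. DESeq2 size factors moved the median of all genes by 0.08 or less.

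With a log2 fold change of at least 1 as a further condition, 2 members rose and 1 fell in Protocol 1A, 3 rose in 1B, 3 rose in 1C, and 0 rose and 0 fell in Protocol 2. In Control, 1 was higher in Protocol 1 against 3, 1 higher in 1 against 2, 1 higher and 1 lower in 1B against 1A, and 0 higher and 1 lower in 1C against 1A. Among the differences, 2 were lower in Protocol 2 against 1, 2 lower in Protocol 3 against 1, 0 higher in 1B against 1A, and 0 higher and 0 lower in 1C against 1A.

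Protocol 2 gave 2 rises with the DESeq2 Wald test, 2 without the filter on low counts and 2 with the Bcl2a1 copies summed. Without the filter, 1B against 1A gave 2 lower responses and 1C against 1A gave 5 higher. With summed copies, Bcl2a1d became 0.37 in the 1B against 1A Control comparison and -0.12 in the difference of these responses, which left 1 higher. Only the groups compared gave 2 lower members in 1C against 1A Control. With Protocol 1A alone as Protocol 1, the difference became -0.20 for Bcl2l11 (Protocol 2) and 0.035 for Bcl2l1 (Protocol 3). The sign of values near 0 turned for Bid under DESeq2 size factors and the Wald test (-0.0253 and -0.0253 in Protocol 1 against 3 Control, -0.0170 and -0.0170 in 2 against 3, -0.00831 and -0.00836 in 1 against 2), and for Bax in Protocol 1 against 2 Control (-0.0237 and -0.0235, and -0.00559 without the filter). In a fit of all 30 libraries Bax in Protocol 2 was 0.0050.

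With the replicate block, Protocol 2 gave 3 rises (Bcl2l1, Bcl2a1b and Bcl2a1d) and 2 falls (Bmf and Bcl2l11), and Protocol 3 gave 3 rises (Mcl1, Bcl2a1d and Bcl2l11). Values with the block stand with each gene, except those of Bcl2a1d and Bcl2l11 in Protocol 2, which kept their calls. In Protocols 1B and 1C it changed no call. In the Control fit the block joined equal numbers of different protocols, for which no pairing is stated or was checked. There Bcl2 lost the call in 1B against 1A and Bid in 1C against 1A (adjusted p = 0.0608 in edgeR), and Bax in 1 against 2 became -9.9e-04. With the block set within each protocol, Bbc3 gained a call in the 1C against 1A difference (0.56, adjusted p = 0.0371). In Protocol 1A, where the numbers were not read as pairs, all 3 HMGB1 libraries were still closest to the Control library of their own number, as in the other protocols.

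Leaving out 1 library gave 5 to 5 rises and 4 to 5 falls in Protocol 1A, 5 to 6 and 4 to 4 in 1B, 4 to 6 and 3 to 4 in 1C, 0 to 1 and 0 to 1 in Protocol 2, and 0 to 0 in Protocol 3. Control counts were 2 to 2 higher and 6 to 7 lower in Protocol 1 against 3, 2 to 3 and 6 to 6 in 2 against 3, 2 to 3 and 3 to 3 in 1 against 2, 2 to 3 and 3 to 3 in 1B against 1A, and 2 to 3 and 1 to 5 in 1C against 1A. Differences were 3 to 4 higher and 4 to 5 lower in Protocol 2 against 1, 4 to 4 and 5 to 5 in 3 against 1, 1 to 2 and 1 to 1 in 1B against 1A, and 1 to 4 and 2 to 2 in 1C against 1A. A call was lost in 12 results and gained in 13, and the sign turned in 15 that were not called. Their ranges were -0.0036 to 0.19 for Bcl2l1 in 1B, -0.41 to 0.026 for Bbc3 in 1C, and in Protocol 2 -0.025 to 0.031 for Bax and -0.0079 to 0.15 for Bid. In Protocol 3 they were -0.28 to 0.0049 for Bmf, -0.48 to 0.14 for Bcl2, -0.15 to 0.012 for Bcl2l1, -0.090 to 0.15 for Bcl2a1b, -0.21 to 4.4e-04 for Bax and -0.057 to 0.15 for Bid. In Control, Bid ran from -0.011 to 0.14 (1 against 3), -0.028 to 0.15 (2 against 3) and -0.035 to 0.066 (1 against 2), and Bax from -0.030 to 0.046 (1 against 2). The 1C against 1A difference for Bmf ran from -0.60 to 0.46. Depth limits Bmf in the HMGB1 libraries of Protocols 1A, 1B and 1C, which held 0 to 26 counts.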
